A study of Mus musculus with 18 samples.

Results

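The comparison described here sets Treg cells that express Foxp3 R397W (3 arrays) against all wild-type Treg cells of the series (7 arrays), across 18193 genes. These 10 arrays are chosen by their titles out of 18 in all. The series measured sorted mouse CD4 T cells on Affymetrix GeneChip arrays. The cells were freshly isolated from lymph nodes and spleen of B6;129 mice, and their RNA was amplified and biotin-labelled over 2 cycles. R397W cells were hCD2+GFP- cells of heterozygous FoxP3 R397W:hCD2/WT:GFP mice, in which the mutant allele carries the surface reporter hCD2 and the wild-type allele carries GFP. The 7 wild-type (WT) arrays comprise 2 of hCD2 cells and 2 of GFP cells of FoxP3 WT:hCD2/WT:GFP mice, and 3 of GFP cells of FoxP3 A384T:hCD2/WT:GFP mice. Treg cells expressing Foxp3 I363V or A384T (3 arrays each), sorted as hCD2+GFP- cells of FoxP3 I363V:hCD2/WT:GFP or FoxP3 A384T:hCD2/WT:GFP mice, and hCD2-GFP- conventional T cells of FoxP3 WT:hCD2/WT:GFP mice (Tconv, 2 arrays) served for comparison. The cells of an R397W mouse that use its wild-type allele were not analysed here, so an effect of the mutation within the cell and an effect of living in an R397W mouse cannot be told apart. All R397W arrays and 2 of the 7 WT arrays carry hCD2, and the other 5 WT arrays carry GFP. The labels do not say that arrays of a group come from separate animals, so p-values measure the spread between these samples, which may be technical.

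Regulatory T (Treg) cells stay suppressive through the transcription factor Foxp3. Its gene lies on the X chromosome, and because one X chromosome is silenced in each cell of a female, a heterozygous mouse holds Treg cells of both alleles side by side. Foxp3 binds DNA through its forkhead domain, where R397W lies, and it works with partners such as NFAT, Runx1 and AP-1 factors. Treg cells respond to IL-2 through the high-affinity receptor chain CD25, make little IL-2 themselves, and carry suppressive molecules such as CTLA-4, CD39 and IL-10. After activation a part of them becomes effector Treg cells, which enter tissues and carry receptors such as KLRG1 and the integrin chain CD103.

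Values are the authors' log2 values, which are given as distances from the Tconv mean, so that 0 is the Tconv level and the absolute level of a gene is not known. Differences are R397W minus the mean of the 7 WT arrays, on the log2 scale and with their standard error. A gene was called when its adjusted p was under 0.05, from the moderated test of limma with Benjamini-Hochberg adjustment over all 18193 genes. All adjusted p-values below come from that limma fit. In cells sorted in bulk, fewer cells of a type and less RNA per cell cannot be told apart.

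The 3 R397W arrays were not alike. Array 2 correlated with the other R397W arrays at 0.37 and 0.48 across genes, and it had the lowest correlations with WT arrays (0.26 to 0.45, against 0.45 to 0.63 for the other R397W arrays). Estimated array weights were 0.53 for R397W array 2 and 0.44 for R397W array 3, the lowest of the 18 arrays. Among the WT arrays, WT GFP 1 and WT hCD2 3 deviated together from their group means (correlation 0.77), although their reporters differ. With 2 arrays in each group, WT GFP 2 and WT hCD2 4 mirror that value. Because several results rest on few arrays, the calls that ended when an array was left out are given with them.

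Genes of effector Treg cells were lower in R397W Treg cells: 27 of 28 effector and tissue genes fell, with a median difference of -1.70, beside a difference of -0.73 for Foxp3 itself. This list, which includes the marker Fgl2, and the other gene lists were chosen with earlier results of these data known. The direction of a list is therefore not independent evidence. In R397W cells 910 genes fell (5.0% of the genes tested) and 459 rose (2.52%). Of the genes that fell, 263 did so by at least 1 on the log2 scale and 43 by at least 2, against 60 and 5 of those that rose. The median was -0.78 among the genes that fell and 0.61 among those that rose, and 0.01 over all genes. The 3 R397W values lay outside the range of the 7 WT values, below it, for 1013 genes (5.57%), and above it for 576 (3.17%). Leaving out R397W array 2 gave 627 genes lower and 408 higher, and 436 lower and 172 higher genes were called in the full set and in each of the 10 fits that left out 1 array.

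**Figure D1:**
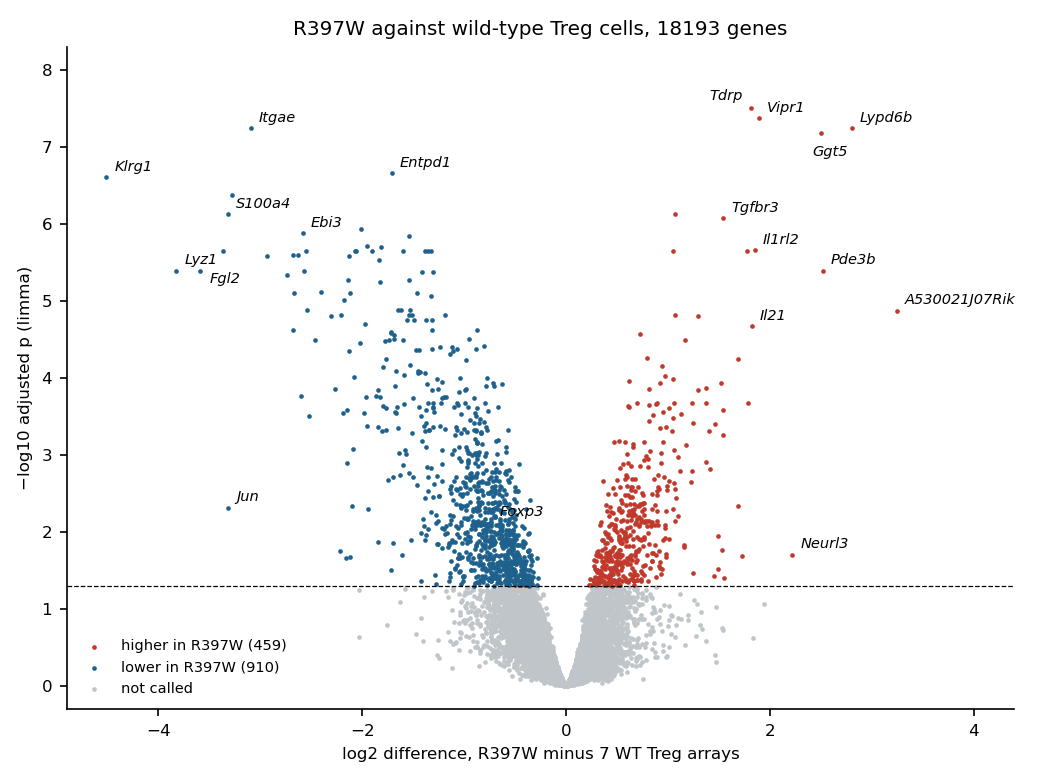
Difference between R397W and WT Treg cells (x axis, log2) against -log10 of the adjusted p (y axis) for 18193 genes, with the threshold as a dashed line. The 910 genes that fell reach further from 0 than the 459 that rose, and Klrg1, at -4.51, lies farthest out.

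The transcript of Foxp3 was 6.38, 6.55 and 7.0 on the R397W arrays, against a lowest, median and highest value of 7.06, 7.42 and 7.59 on the WT arrays. All R397W arrays lay below all WT arrays but far above Tconv cells, by 6.64 on the log2 scale (adjusted p = 5.26e-12). Foxp3 therefore fell by 1.66-fold against WT (-0.73 ± 0.16, adjusted p = 0.00739). The call was lost without R397W array 1 (adjusted p = 0.0537) and against the WT hCD2 arrays alone, where the difference was -0.55 (adjusted p = 0.217). Because the cells were sorted by a reporter carried on the Foxp3 allele, a Foxp3 level above Tconv follows from the sort. It is not an independent check that they were Treg cells. The transcript also cannot show which allele they used, since the labelled change is a single substitution.

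The 4 marker genes of the comparison moved far, and none of their R397W values overlapped the WT values. They were chosen with earlier results of these data known, so their size and direction are not independent evidence. Itgae encodes CD103, the integrin chain that holds T cells in epithelium by binding E-cadherin. It was 1.66, 1.44 and 1.92 on the R397W arrays, against a lowest, median and highest value of 4.13, 4.85 and 5.17 on the WT arrays. The R397W arrays were 8.54-fold below WT (-3.09 ± 0.19, adjusted p = 5.72e-08) and still 1.68 above Tconv (adjusted p = 0.000656). Fgl2, a secreted fibrinogen-like protein used by Treg cells for suppression, was -0.80, -1.25 and -1.19 on the R397W arrays, against a lowest, median and highest value of 1.92, 2.64 and 3.25 on the WT arrays. It fell by 12.1-fold (-3.60 ± 0.34, adjusted p = 4.03e-06), and its R397W level did not differ from Tconv beyond the threshold (-1.08, adjusted p = 0.336). The second probe set of Fgl2 fell by less, with a difference of -1.91.

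Il21 and Il1rl2 moved the other way. Il21, a cytokine of follicular helper T cells, was -0.22, -0.02 and -0.44 on the R397W arrays, against a lowest, median and highest value of -2.37, -2.25 and -1.67 on the WT arrays. WT Treg cells held it far under the Tconv level, and R397W cells differed from Tconv by -0.23 (adjusted p = 0.846). It rose by 3.54-fold against WT (1.82 ± 0.20, adjusted p = 2.11e-05). Il1rl2, the receptor for IL-36, was -0.87, -0.82 and -1.66 on the R397W arrays, against a lowest, median and highest value of -3.11, -2.94 and -2.85 on the WT arrays. Its R397W arrays were 3.61-fold above WT (1.85 ± 0.16, adjusted p = 2.2e-06) and remained 1.12 below Tconv (adjusted p = 0.00543). R397W array 3 was the lowest of the 3 for both genes. Both genes have a second probe set, whose differences were small (0.10 for Il21 and 0.12 for Il1rl2). With the mean of both probe sets the differences were 0.96 for Il21 (adjusted p = 1.69e-05) and 0.98 for Il1rl2 (adjusted p = 1.18e-06).

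**Figure D2:**
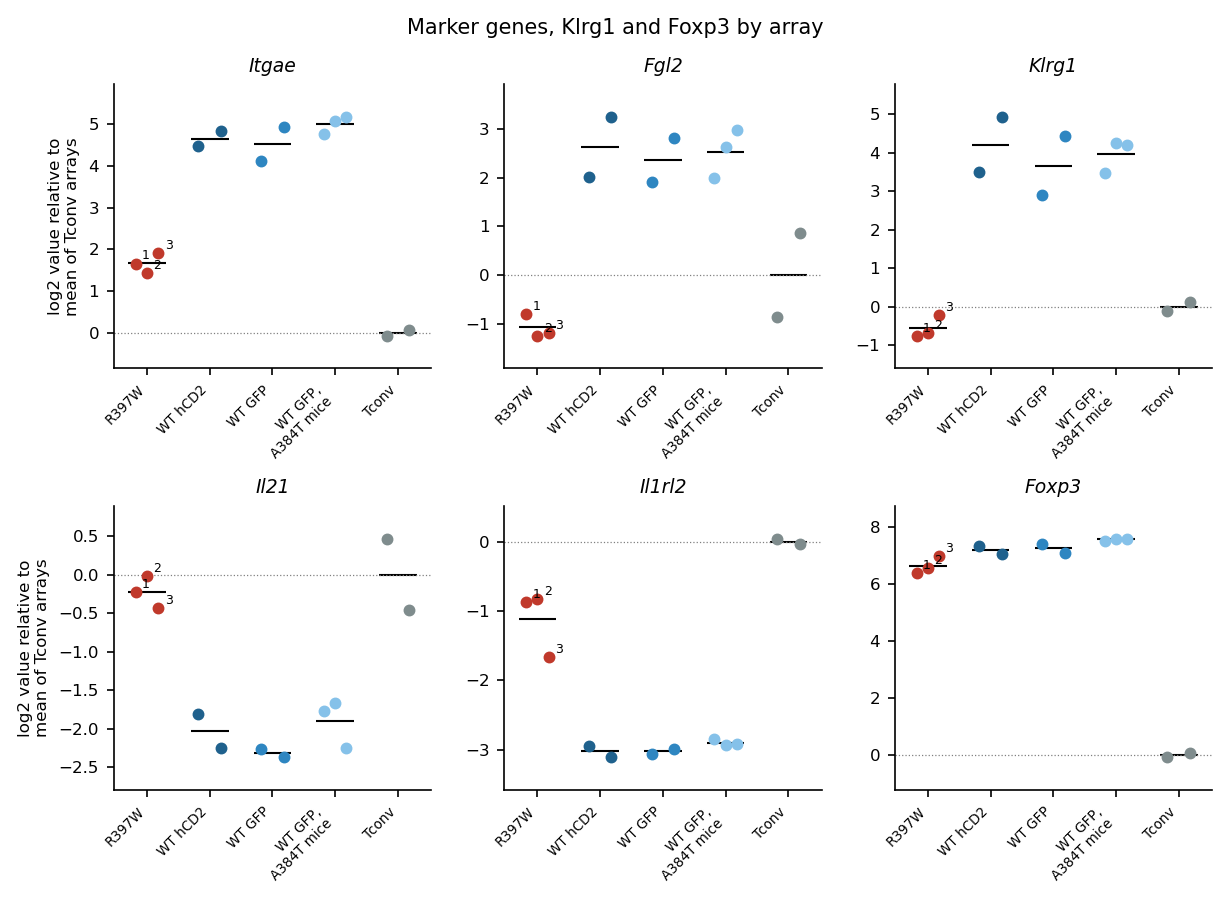
Values of the 4 marker genes, Klrg1 and Foxp3 on each array (y axis, log2 relative to the Tconv mean) for R397W, the 3 WT groups and Tconv, with black bars at group means and the R397W array numbers beside the points. For each of the 6 genes the R397W points lie outside the range of the 7 WT points, while Foxp3 lies between 6.38 and 7.59 in all of these Treg cells.

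The promoters of Il21 and Il1rl2, which rose, and of the neighbouring genes S100a4 and S100a6, which fell, are shown as the 250 bases before the annotated start, from RefSeq (GRCm38.p6), 5′ to 3′ on the strand of the gene. Capitals mark 4 motifs searched on both strands: the forkhead motif GTAAACA, the Runx motif TGTGGT, the AP-1 motif TGANTCA and the NFAT motif GGAAAA. These are the binding families of Foxp3 and its partners, and the motifs do not overlap in these windows.
Il21, chr3:37232637-37232886, minus strand: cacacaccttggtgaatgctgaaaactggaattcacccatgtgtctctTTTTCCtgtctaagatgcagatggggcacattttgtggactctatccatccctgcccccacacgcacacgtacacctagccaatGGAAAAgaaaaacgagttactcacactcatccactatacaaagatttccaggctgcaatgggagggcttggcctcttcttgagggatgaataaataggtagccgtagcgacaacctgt
Il1rl2, chr1:40324339-40324588, plus strand: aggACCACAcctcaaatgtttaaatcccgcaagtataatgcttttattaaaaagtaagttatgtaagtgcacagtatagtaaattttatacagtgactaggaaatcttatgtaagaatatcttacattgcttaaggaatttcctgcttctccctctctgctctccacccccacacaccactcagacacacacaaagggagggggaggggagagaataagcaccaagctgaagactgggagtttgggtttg
S100a4, chr3:90603520-90603769, plus strand: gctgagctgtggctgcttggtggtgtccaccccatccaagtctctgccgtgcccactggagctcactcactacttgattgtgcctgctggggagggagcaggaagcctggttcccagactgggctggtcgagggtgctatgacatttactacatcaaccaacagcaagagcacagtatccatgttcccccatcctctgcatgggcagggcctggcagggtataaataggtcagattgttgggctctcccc
S100a6, chr3:90612644-90612893, plus strand: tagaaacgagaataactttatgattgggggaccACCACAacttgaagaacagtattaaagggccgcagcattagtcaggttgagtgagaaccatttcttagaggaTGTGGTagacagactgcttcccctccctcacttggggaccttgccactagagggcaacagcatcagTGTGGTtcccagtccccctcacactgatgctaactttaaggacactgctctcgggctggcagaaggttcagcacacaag
Il21 holds 2 NFAT motifs, Il1rl2 holds 1 Runx motif, S100a6 holds 3 Runx motifs and S100a4 holds 0 of the 4. Of the 18193 genes tested, 14452 had such a window. The forkhead motif was in 2.51% of these windows, in 2.24% of those of genes that fell and in 2.96% of those of genes that rose. The Runx motif was in 11.7% of all windows, 10.6% of genes that fell and 11.9% of genes that rose. The AP-1 motif was in 5.58%, 7.14% and 5.93%, and the NFAT motif in 19.1%, 15.7% and 18.3%, of the same sets in the same order. A match is a description of letters, not a binding site.

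Surface receptors by which Treg cells are recognised were lower in R397W cells, to unequal degrees. Of 22 measured receptors, 16 fell and 0 rose, with a median difference of -1.0. Klrg1, an inhibitory receptor for cadherins, had the largest decrease of all genes called. It was -0.76, -0.70 and -0.23 on the R397W arrays, against a lowest, median and highest value of 2.89, 4.21 and 4.92 on the WT arrays, a 22.8-fold difference (-4.51 ± 0.31, adjusted p = 2.43e-07). The difference of Klrg1 from Tconv did not pass the test (-0.56, adjusted p = 0.704). Cd83, a receptor of activated lymphocytes, was 1.93 to 2.18 on the R397W arrays, against 3.71 to 4.54 on the WT arrays (-2.06 ± 0.18, adjusted p = 2.25e-06), and Nrp1, the semaphorin co-receptor that marks Treg cells of thymic origin, was 2.32 to 2.55 on the R397W arrays, against 4.09 to 4.93 on the WT arrays (-1.97 ± 0.21, adjusted p = 1.97e-05). Both stayed above Tconv, by 2.04 for Cd83 and 2.42 for Nrp1. The costimulator Icos was -0.56 to 0.32 on the R397W arrays, against 1.02 to 2.16 on the WT arrays (-1.82 ± 0.25, adjusted p = 0.000174), and the R397W arrays were spread around the Tconv level.

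Other receptors differed less. Ctla4, which removes CD80 and CD86 from antigen-presenting cells, had a difference of -0.79 (adjusted p = 0.0127), lost without R397W array 2 (adjusted p = 0.101), and R397W cells stayed 3.40 above Tconv. The receptors Tnfrsf9 (4-1BB), Tnfrsf1b (TNFR2) and Tnfrsf4 (OX40) fell by 1.54, 1.63 and 0.89, the last of which was lost without R397W array 2 (adjusted p = 0.0523). Pdcd1 (PD-1) fell by 0.82, also lost without R397W array 2 (adjusted p = 0.0656), and Cd44 fell by 1.20. With the mean of their probe sets the differences were -0.86 for Tnfrsf9, -1.01 for Tnfrsf1b and -0.62 for Cd44. The 6 receptors that did not pass the test were Tnfrsf18 (GITR, -0.63), Izumo1r (folate receptor 4, -0.88), Lag3 (-0.93), Cd200 (-0.08), Cd5 (0.43) and Il7r (-0.72). R397W array 2 was the lowest of the 3 R397W arrays for Tnfrsf18, Izumo1r, Lag3 and Cd5. Without that array 11 of the 22 receptors were called lower.

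Of 17 measured suppressor molecules, 12 fell and 0 rose (median -1.43), and 9 of the 17 fell when R397W array 2 was left out. Ebi3, the shared chain of IL-27 and IL-35, was 0.84, 0.59 and 0.46 on the R397W arrays, against a lowest, median and highest value of 2.73, 3.10 and 3.68 on the WT arrays. The 2 sets of arrays were 6.0-fold apart (-2.58 ± 0.21, adjusted p = 1.3e-06), and R397W cells were not above Tconv by the test (0.63, adjusted p = 0.375). Penk, which encodes proenkephalin, was 0.55 to 1.4 on the R397W arrays, against 2.96 to 3.91 on the WT arrays (-2.55 ± 0.22, adjusted p = 2.23e-06). Entpd1, or CD39, which starts the conversion of extracellular ATP to adenosine, was 1.37, 1.22 and 1.34 on the R397W arrays, against a lowest, median and highest value of 2.74, 2.98 and 3.30 on the WT arrays. It fell by 3.27-fold (-1.71 ± 0.12, adjusted p = 2.18e-07), and its 3 probe sets had differences from -1.71 to -0.89.

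Itgb8, the integrin chain that activates latent TGF-beta, fell by 2.02 (adjusted p = 3.49e-05), but R397W cells were still 2.90 above Tconv. Gzmb, the cytotoxic protease granzyme B, was -0.28 to 0.02 on the R397W arrays, against 1.11 to 3.51 on the WT arrays (-2.14 ± 0.36, adjusted p = 0.00126), and the WT arrays were widely spread. Il10 fell by 1.08 (adjusted p = 0.0293), a call kept in 3 of the 10 fits that left out 1 array, with adjusted p up to 0.11. The 5 molecules that did not pass the test were Il12a (0.12), Tgfb1 (-1.43), Prf1 (-0.15), Lag3 and Ido1 (-0.06). Probe sets of Tgfb1 differed in sign.

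The effector and tissue list, which shares members with the lists above, had the largest share of genes that fell (27 of 28), and 22 fell when R397W array 2 was left out. S100a4, a calcium-binding protein of motile cells, was -1.35, -1.64 and -1.58 on the R397W arrays, against a lowest, median and highest value of 1.03, 2.07 and 2.25 on the WT arrays (-3.32 ± 0.25, adjusted p = 7.4e-07). Its neighbour on chromosome 3, S100a6, was -0.92, -1.57 and -1.13 on the R397W arrays, against a lowest, median and highest value of 1.41, 2.30 and 2.58 on the WT arrays (-3.28 ± 0.24, adjusted p = 4.25e-07). For S100a4 the R397W arrays were below Tconv as well (-1.53, adjusted p = 0.0194). Myo1f, an unconventional myosin, fell by 2.74 (adjusted p = 4.65e-06), and R397W cells were 1.69 below Tconv (adjusted p = 0.011). The 3 probe sets of Myo1f had differences from -2.74 to -1.26. The galectins Lgals1 and Lgals3 fell by 1.45 and 2.10. Outside the list, Tktl1, a transketolase-like enzyme, was -1.12 to -0.24 on the R397W arrays, against 1.73 to 3.37 on the WT arrays (-3.37 ± 0.30, adjusted p = 2.25e-06), with a mean over its probe sets of -1.83.

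Of 30 measured homing receptors and integrins, 13 fell and 1 rose (median -0.50). Gpr15, which directs T cells to the colon, was 0.36, 0.30 and 0.45 on the R397W arrays, against a lowest, median and highest value of 2.60, 3.38 and 3.97 on the WT arrays. It fell by 7.64-fold (-2.93 ± 0.26, adjusted p = 2.58e-06). Ccr8, a receptor of skin and tumour Treg cells, was -0.48 to 0.35 on the R397W arrays, against 1.76 to 2.78 on the WT arrays (-2.13 ± 0.25, adjusted p = 4.5e-05). Cxcr3, the receptor that brings T cells to sites of type 1 inflammation, was -1.96 to -1.05 on the R397W arrays, against -0.004 to 1.08 on the WT arrays (-2.18 ± 0.22, adjusted p = 9.58e-06), and R397W cells lay 1.61 below Tconv (adjusted p = 0.00424). Ccr2, Ccr6, Ccr4 and Cxcr6 fell by 1.80, 1.08, 0.96 and 1.95, and Ccr2 by 1.02 with the mean of its probe sets. Itgb1, the beta 1 integrin chain, fell by 2.67 (adjusted p = 7.8e-06). It has 6 probe sets, all below 0, whose differences ran from -2.67 to -0.001, and their mean gave -1.05 (adjusted p = 9.52e-06).

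Among 32 measured transcription factors of Treg cells, 8 fell, 1 rose and 23 did not pass the test (median -0.39). Prdm1, which encodes Blimp-1 and is needed for effector Treg cells to make IL-10, was -0.25, -0.48 and -0.79 on the R397W arrays, against a lowest, median and highest value of 0.64, 0.98 and 1.28 on the WT arrays (-1.47 ± 0.17, adjusted p = 4.31e-05). Tbx21 encodes T-bet, the factor of type 1 responses. It was -2.02, -2.08 and -1.93 on the R397W arrays, against a lowest, median and highest value of -0.52, -0.40 and -0.07 on the WT arrays (-1.69 ± 0.19, adjusted p = 2.74e-05), so that R397W cells were also 2.01 below Tconv (adjusted p = 0.000121). Gata3 fell by 1.37 (adjusted p = 0.000795) and Maf by 1.70 (adjusted p = 0.00193), although 1 of the 6 probe sets of Maf was above 0 and their mean gave -0.85 (adjusted p = 0.0011). Ikzf2, or Helios, was 3.62 to 3.98 on the R397W arrays, against 4.56 to 4.89 on the WT arrays (-0.98 ± 0.12, adjusted p = 5.78e-05), and R397W cells stayed 3.77 above Tconv. Nfil3 (-1.70) and Rora (-1.61) fell too, both lost without R397W array 2 (adjusted p = 0.0694 and 0.14).

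Satb1, a chromatin organiser that Foxp3 holds down, rose by 1.45 (adjusted p = 0.0368), and by 0.77 with the mean of its probe sets. This call was kept in 2 of the 10 fits that left out 1 array, with adjusted p up to 0.111, and the values were -0.17, -0.39 and 0.04 on the R397W arrays, against a lowest, median and highest value of -2.32, -1.83 and -0.34 on the WT arrays. The factors that did not pass the test include Ikzf4, or Eos (-0.33), Irf4 (-0.65), Batf (-0.63), Bach2 (0.06), Foxo1 (-0.20), Runx1 (-0.33), Cbfb (0.02), Bcl6 (-0.54) and Lef1 (-0.17). Bhlhe40 was 0.68 to 1.05 on the R397W arrays, against 1.63 to 2.69 on the WT arrays, a difference of -1.32 with adjusted p = 0.0588.

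Some transcripts of the IL-2 pathway were lower in R397W cells. Of 18 measured genes, 6 fell and 1 rose (median -0.41), and without R397W array 2 there were 4 that fell, with a median of -0.19. Il2ra, which encodes CD25, was 4.31, 4.30 and 4.61 on the R397W arrays, against a lowest, median and highest value of 5.2, 5.45 and 5.55 on the WT arrays. It fell by 1.98-fold (-0.99 ± 0.13, adjusted p = 0.000141), and stayed 4.41 above Tconv. Il2rb, the signalling beta chain, was 1.90, 0.55 and 2.32 on the R397W arrays, against a lowest, median and highest value of 2.81, 3.78 and 4.22 on the WT arrays (-2.09 ± 0.34, adjusted p = 0.000828). Among the targets of STAT5, Socs2 fell by 0.79 (adjusted p = 0.00156), Pim1 by 1.12 (adjusted p = 0.000956) and Cish by 0.64 (adjusted p = 0.02), the last of which was lost without R397W array 2 (adjusted p = 0.151). Probe sets of Socs2 differed in sign, and their mean gave -0.27 (adjusted p = 0.149). The gene that rose was Il2 itself, which Foxp3 represses. It was -0.12, -0.22 and -0.26 on the R397W arrays, against a lowest, median and highest value of -0.95, -0.85 and -0.66 on the WT arrays (0.62 ± 0.08, adjusted p = 0.000108). Jak1 (0.69), Jak3 (-0.76), Stat5a (-1.04), Bcl2 (0.39) and Mcl1 (-0.29) did not pass the test.

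Of 19 measured T helper cytokines, 3 rose, 4 fell and 12 did not pass the test (median -0.11). Beside Il21 and Il2, Il17a rose: it was 0.04, 0.61 and 1.43 on the R397W arrays, against a lowest, median and highest value of -0.47, -0.27 and -0.01 on the WT arrays (0.95 ± 0.22, adjusted p = 0.0127). Its call was lost without R397W array 3 (adjusted p = 0.0811), the highest of the 3 arrays. Csf1 fell by 1.54 (adjusted p = 1.53e-05), with probe sets of differing sign whose mean gave -0.72 (adjusted p = 8.19e-05), and Ifng by 1.28 (adjusted p = 0.0363), a call kept in 3 of the 10 fits with adjusted p up to 0.203. Tnf fell by 0.37, kept in 3 of the 10 fits with adjusted p up to 0.196. The cytokines Il4 (-0.18), Il5 (0.13), Il6 (-0.17), Il9 (0.21), Il13 (0.03) and Csf2 (0.05) did not pass the test. The count of 4 that fell was 1 or 2 without R397W array 1, 2 or 3, without WT hCD2 3, or without any of the 3 arrays of WT GFP cells of A384T mice.

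Of 14 measured type 1 genes, 7 fell and 0 rose (median -1.09). Beside Tbx21 and Cxcr3, Ccl5, a chemokine of effector T cells, was -2.55, -2.53 and -2.92 on the R397W arrays, against a lowest, median and highest value of -0.37, -0.31 and 0.37 on the WT arrays (-2.54 ± 0.26, adjusted p = 1.29e-05). The IL-12 receptor chain Il12rb1 fell by 1.18 (adjusted p = 1.53e-05). Of 14 follicular helper genes, 6 fell and 2 rose (median -0.62). The 6 include the B cell follicle receptor Cxcr5 (-1.62 ± 0.17, adjusted p = 1.29e-05), Icos, Maf, Pdcd1 and the nuclear factor Tox2 (-1.87, with 2 probe sets of differing sign whose mean gave -0.78, adjusted p = 0.00165). Those that rose were Il21 and Slamf6 (0.86, adjusted p = 0.0186, lost without R397W array 1 or array 2, with adjusted p up to 0.113, and 0.26 with the mean of its probe sets, adjusted p = 0.0712). Bcl6, which directs the follicular fate, did not pass the test.

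Receptors of the IL-1 family differed one by one. Of 13 measured, Il1rl2 rose, Il1r2 and Il18rap fell, and 10 did not pass the test (median -0.001). Il1r2, a decoy receptor that binds IL-1 without signalling, was 1.53, 0.69 and 1.34 on the R397W arrays, against a lowest, median and highest value of 3.24, 3.72 and 4.60 on the WT arrays (-2.68 ± 0.30, adjusted p = 2.4e-05). Il1r2 and Il1rl2 lie on the same stretch of mouse chromosome 1 (chr1:40084692-40125230 and chr1:40324589-40367555 in GRCm38.p6), and their differences had opposite signs. Il18rap, the accessory chain of the IL-18 receptor, was -1.51 to -1.24 on the R397W arrays, against -0.29 to 0.98 on the WT arrays (-1.77 ± 0.27, adjusted p = 0.000474). Its binding partner Il18r1 (0.13), the signalling receptor Il1r1 (0.22), Il1rap (0.08) and the adaptor Myd88 (0.09) did not pass the test.

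The genes with the largest increases were mostly ones that WT Treg cells hold under the Tconv level. Pde3b, a phosphodiesterase that breaks down cyclic AMP and that Foxp3 is known to repress, was -1.23, -0.61 and -1.78 on the R397W arrays, against a lowest, median and highest value of -4.03, -3.78 and -2.98 on the WT arrays (2.52 ± 0.23, adjusted p = 4.03e-06). Lypd6b, a membrane-anchored protein of the Ly6 family, was -1.0, -1.48 and -1.31 on the R397W arrays, against a lowest, median and highest value of -4.52, -4.10 and -3.68 on the WT arrays (2.81 ± 0.17, adjusted p = 5.72e-08), and its R397W arrays remained 1.27 below Tconv (adjusted p = 0.00375). Ggt5, a gamma-glutamyltransferase, was -0.60 to 0.34 on the R397W arrays, against -2.89 to -2.48 on the WT arrays (2.50 ± 0.16, adjusted p = 6.51e-08), with a mean over its probe sets of 1.61. Tdrp rose by 1.82 (adjusted p = 3.15e-08) and Vipr1, a receptor for vasoactive intestinal peptide, by 1.89 (adjusted p = 4.24e-08). The other probe set of Vipr1 had a difference of -0.002, and the mean of both gave 0.95 (adjusted p = 1.18e-06).

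A530021J07Rik had the largest increase of all genes called. It was 1.34, 1.35 and -0.18 on the R397W arrays, against a lowest, median and highest value of -3.03, -2.47 and -1.63 on the WT arrays (3.25 ± 0.34, adjusted p = 1.33e-05), with R397W array 3 apart from the other 2. Dsp, the desmosomal protein desmoplakin, is higher in WT Treg cells than in Tconv cells and was higher again in R397W cells, at 2.63 to 3.85 on the R397W arrays, against 0.92 to 1.82 on the WT arrays (1.78 ± 0.25, adjusted p = 0.000212). The mean of its probe sets gave 1.07 (adjusted p = 0.000165). Neurl3 rose by 2.22 (adjusted p = 0.0197) and was lost without R397W array 1 or array 3 (adjusted p up to 0.0984). Atp8b4 and the monocarboxylate transporter family member Slc16a5 rose by 1.78 and 1.69, and by 1.05 and 0.87 with the mean of their probe sets.

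Of 19 measured genes known to be lower in Treg than in conventional T cells, 8 rose and 1 fell. The median of the list was -0.08, and 10 members did not pass the test. The genes that rose were Pde3b, Il21, Il2, Satb1, Tgfbr3, Themis, Dapl1 and Txk. Tgfbr3, the TGF-beta co-receptor betaglycan, rose by 1.54 ± 0.12 (adjusted p = 8.28e-07, with a mean over its probe sets of 0.80). Themis, a thymocyte signalling protein, rose by 1.37 ± 0.19 (adjusted p = 0.000213). Dapl1 rose by 1.08 (adjusted p = 0.00364) and Txk by 0.42, kept in 2 of the 10 fits that left out 1 array, with adjusted p up to 0.219. Among 13 naive T cell genes, 4 rose and 0 fell (median -0.17), namely Satb1, Txk, Tdrp and Dapl1. The count was 2 without R397W array 1, WT GFP 1, WT hCD2 3 or any of the 3 arrays of WT GFP cells of A384T mice. Lef1, Klf2, Il7r and Foxo1 did not pass the test.

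Control of cyclic nucleotides and adenosine changed in both directions. Of 23 measured genes, 4 rose and 6 fell (median 0.12), and 3 fell without R397W array 2 or array 3. Pde3b and the receptor gene Vipr1 were among those that rose. Pde2a, an enzyme that breaks down cyclic nucleotides, was -1.29 to -0.52 on the R397W arrays, against 0.25 to 1.0 on the WT arrays (-1.39 ± 0.21, adjusted p = 0.000419), with a mean over its probe sets of -0.88. Nt5e, or CD73, which completes the step begun by CD39, fell by 0.50, a call kept in 5 of the 10 fits with adjusted p up to 0.139, and not called with the mean of its probe sets (-0.27, adjusted p = 0.0934). The prostaglandin receptor Ptger4 (-1.04) was called in 5 of the 10 fits, with adjusted p up to 0.226. The guanylate cyclase chain Gucy1b1 was 2.07 to 2.62 on the R397W arrays, against 0.56 to 2.07 on the WT arrays, a difference of 0.96 that did not pass the test (adjusted p = 0.0886).

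**Figure D3:**
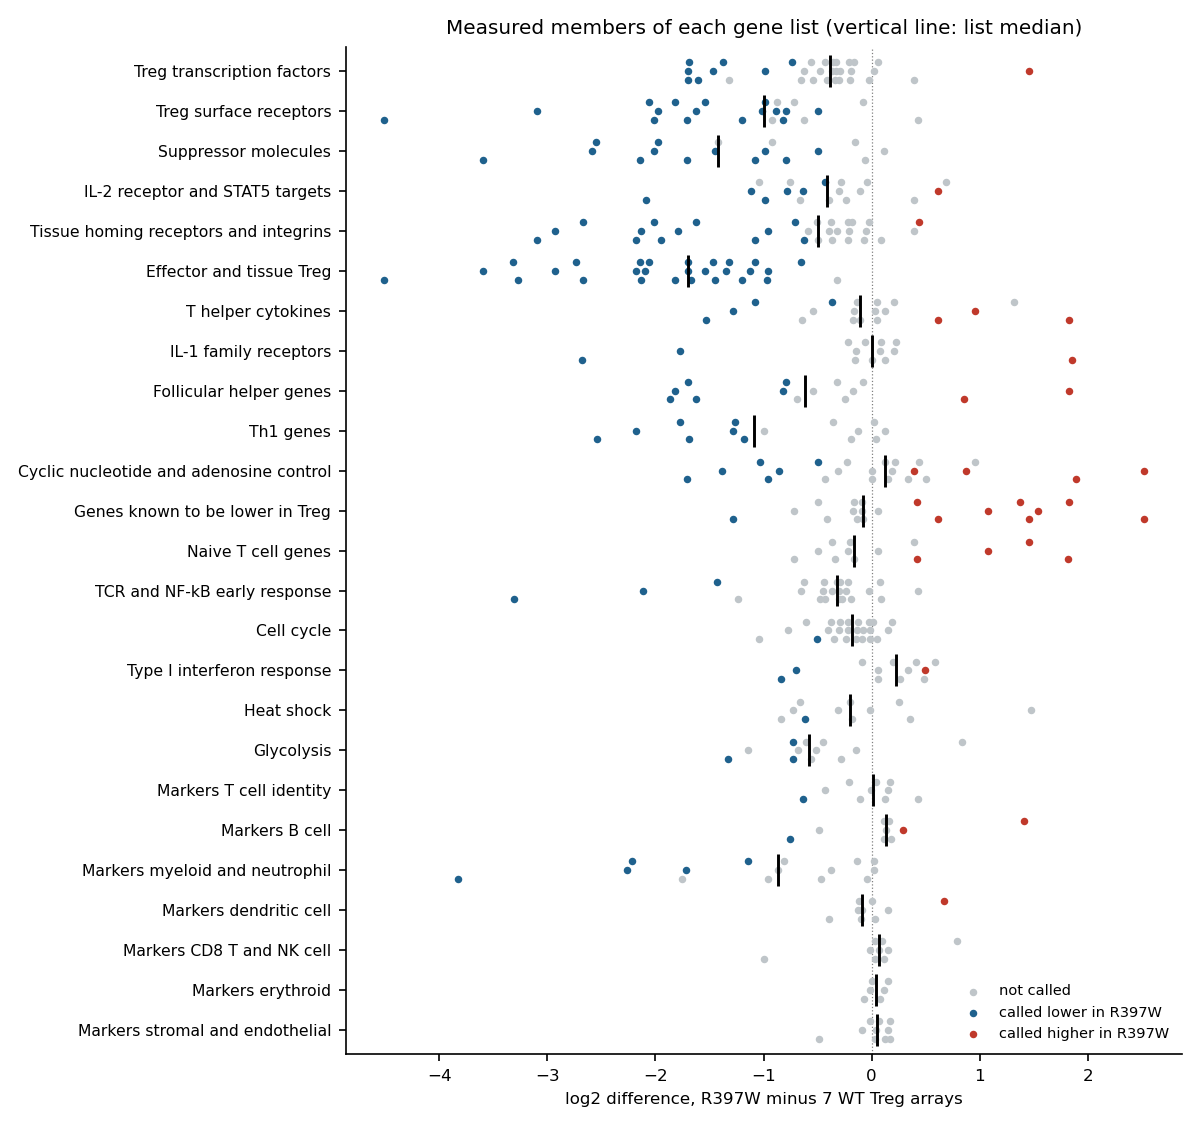
Difference between R397W and WT Treg cells (x axis, log2) for each measured member of 25 gene lists (rows), coloured by call, with a black line at each list's median. Effector and tissue Treg genes lie almost wholly to the left (27 of 28 lower), while genes known to be lower in Treg cells include 8 that rose.

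Jun and Fos, 2 early response genes, separated the R397W arrays from each other. Of 23 measured genes of T cell receptor and NF-kB signalling, 3 fell (Jun, Fos and Junb) and 0 rose (median -0.32). Jun, a subunit of AP-1, was -3.68, 0.89 and -3.22 on the R397W arrays, against a lowest, median and highest value of 0.76, 1.20 and 1.96 on the WT arrays (-3.31 ± 0.67, adjusted p = 0.00481), so R397W array 2 was within the WT range and the other 2 were far below it. Without array 2 the difference of Jun was -4.76 (adjusted p = 8.04e-07). Fos, its AP-1 partner, was also high on array 2 alone among the R397W arrays: it was -2.42, 1.0 and -2.92 on the R397W arrays, against a lowest, median and highest value of 0.37, 0.78 and 0.96 on the WT arrays (-2.12 ± 0.54, adjusted p = 0.0213), lost without R397W array 1 or array 3 (adjusted p up to 0.138). Junb was 0.10, -0.21 and 1.0 on the R397W arrays, against a lowest, median and highest value of 0.96, 1.83 and 2.42 on the WT arrays (-1.43 ± 0.32, adjusted p = 0.0103), lost without R397W array 2 (adjusted p = 0.0723).

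The stress-induced chaperone Hspa1a stood apart on the same array. It was -1.30, 5.86 and -0.94 on the R397W arrays, against a lowest, median and highest value of -0.86, -0.46 and 0.59 on the WT arrays. The difference of 1.47 did not pass the test (adjusted p = 0.484) and was -0.85 without R397W array 2. Of 11 heat shock genes, 0 rose and 1 fell, Hsp90aa1 (-0.61, lost without R397W array 1, R397W array 3 or array 1 of the WT GFP cells of A384T mice, with adjusted p up to 0.109, and -0.16 with the mean of its probe sets, adjusted p = 0.286).

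Of 12 measured glycolysis genes, 3 fell and 0 rose (median -0.58), and 5 fell without R397W array 1. The glucose transporter Slc2a3 was -0.31, -0.11 and -0.06 on the R397W arrays, against a lowest, median and highest value of 0.85, 1.23 and 1.41 on the WT arrays (-1.33 ± 0.12, adjusted p = 2.25e-06), with a mean over its probe sets of -0.73. The hexokinase Hk2 fell by 0.73 (adjusted p = 0.00417) and Tpi1 by 0.73, a call of Tpi1 that was lost without R397W array 2 (adjusted p = 0.19). Of 24 cell cycle genes, 0 rose and 1 fell, Mcm6 (-0.51), in 2 of the 10 fits that left out 1 array and with adjusted p up to 0.168, and -0.28 with the mean of its probe sets (adjusted p = 0.103). Mki67, a marker of dividing cells, was -0.85 to 0.80 on the R397W arrays, against 0.39 to 2.42 on the WT arrays, so the groups overlapped.

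Of 15 measured myeloid and neutrophil markers, 5 fell and 0 rose in R397W cells (median -0.87), and 2 fell without R397W array 1 or array 2 and 3 without R397W array 3, WT GFP 1 or WT hCD2 3. The sum of the 15 values ran from -18.3 to -15.0 on the R397W arrays, against -8.44 to 9.90 on the WT arrays. Lyz1, a lysozyme, was -3.88, -3.09 and -3.84 on the R397W arrays, against a lowest, median and highest value of -0.94, 0.47 and 1.02 on the WT arrays (-3.82 ± 0.36, adjusted p = 4.03e-06), below Tconv as well by 3.60 (adjusted p = 0.000209). The 3 probe sets of Lyz1 were all below 0 against WT, with differences from -3.82 to -0.17. Lyz2 was -1.83, -2.06 and -1.53 on the R397W arrays, against a lowest, median and highest value of -0.54, 0.53 and 1.17 on the WT arrays (-2.26 ± 0.30, adjusted p = 0.000137). S100a8, S100a9 and Csf1r fell by 2.21, 1.72 and 1.15, in 8, 5 and 2 of the 10 fits that left out 1 array, with adjusted p up to 0.0595, 0.116 and 0.162. The mean of the probe sets of Csf1r gave -0.54 (adjusted p = 0.0701). For 7 of the 15 markers all 3 R397W values lay below the range of the WT values. Cd14 (0.02), Itgam (-0.04) and Adgre1 (-0.14), which were named after their values were seen, did not pass the test. Lgals3, S100a4 and S100a6 are expressed in myeloid cells too, and the part of myeloid RNA in their differences was not tested.

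Markers of other cell types moved less. Of 10 T cell identity genes 1 fell (Cd3e, -0.64, lost without R397W array 1, adjusted p = 0.0892). Of 9 B cell markers, 2 rose and 1 fell. Ms4a1, or CD20, was 0.32 to 1.15 on the R397W arrays, against -1.33 to -0.20 on the WT arrays (1.41 ± 0.24, adjusted p = 0.00154), while Cd79b fell by 0.76, in 6 of the 10 fits that left out 1 array and with adjusted p up to 0.16. The other B cell marker that rose was Fcer2a (0.29, in 4 of the 10 fits, with adjusted p up to 0.168). Of 9 dendritic cell markers 1 rose (Zbtb46, 0.67, in 1 of the 10 fits, with adjusted p up to 0.167), and 0 of 9 CD8 and natural killer, 0 of 6 erythroid and 0 of 10 stromal and endothelial markers were called. The sum of the CD8 and natural killer markers was -7.11 to -6.67 on the R397W arrays, against -8.57 to -6.13 on the WT arrays. The 12 interferon response genes had a median of 0.23, which was 0.13, 0.42 and 0.04 without R397W array 1, 2 and 3, with Ifit2 higher (0.49, adjusted p = 0.00676) and Oas1a (-0.84) and Stat2 (-0.70) lower, in 8 and 6 of the 10 fits that left out 1 array, with adjusted p up to 0.113 and 0.202. With the mean of their probe sets Stat2 (-0.48, adjusted p = 0.101), Fcer2a (0.13, adjusted p = 0.26) and Zbtb46 (0.16, adjusted p = 0.187) were not called.

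**Figure D4:**
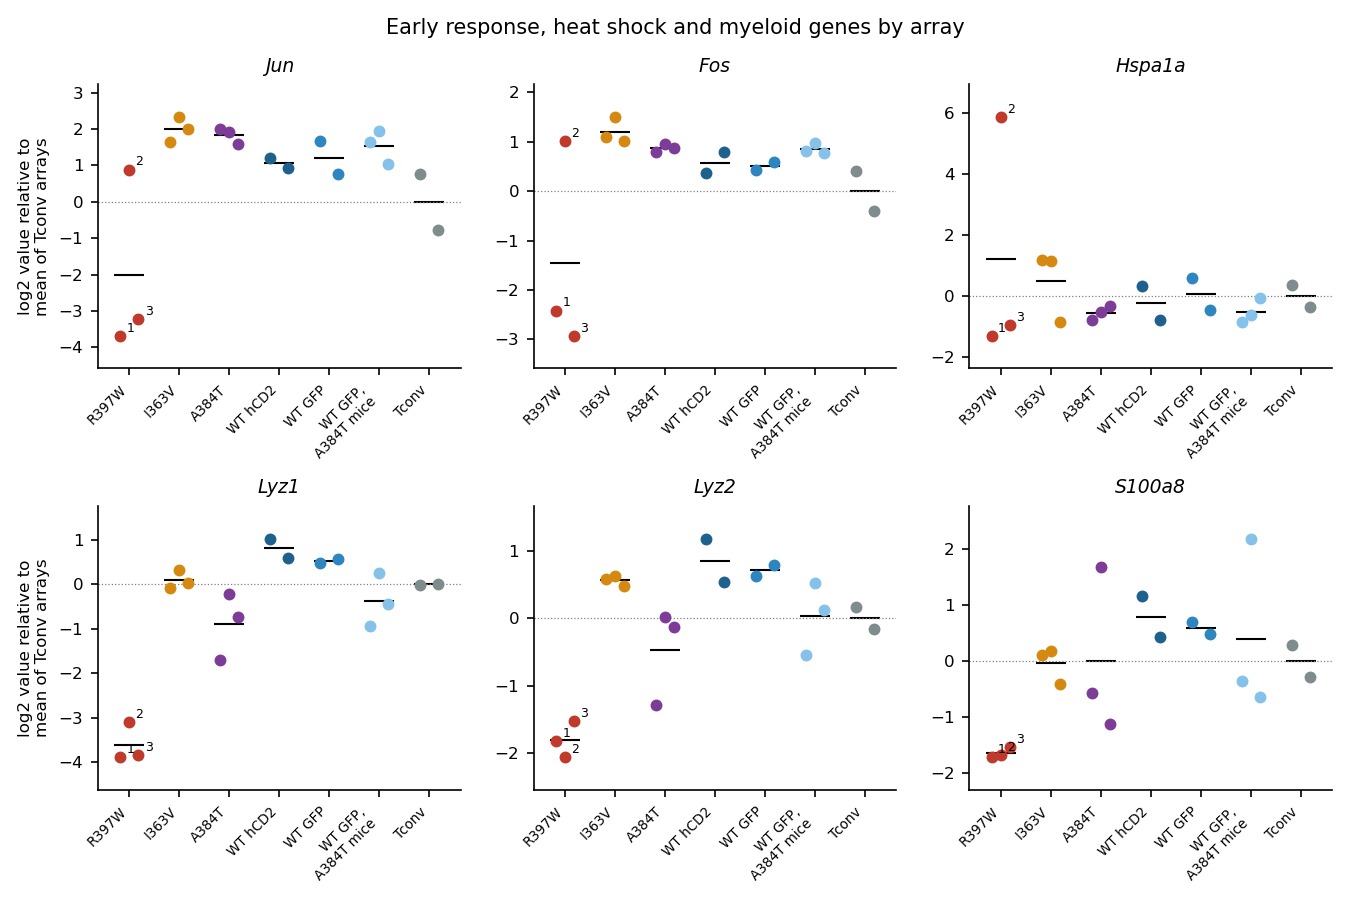
Values of Jun, Fos, Hspa1a, Lyz1, Lyz2 and S100a8 on each array (y axis, log2 relative to the Tconv mean) for the 3 mutants, the 3 WT groups and Tconv, with black bars at group means. R397W array 2 stands apart from arrays 1 and 3 for Jun, Fos and Hspa1a, at 5.86 for Hspa1a, whereas all 3 R397W arrays are lowest for Lyz1 and Lyz2.

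Against the WT hCD2 arrays alone, which carry the same reporter, 282 genes were lower (1.55%) and 130 higher (0.715%) in R397W cells. The difference was -2.99 for Itgae (adjusted p = 1.38e-05), -3.71 for Fgl2 (adjusted p = 0.00064), -4.77 for Klrg1 (adjusted p = 3.57e-05), 1.80 for Il21 (adjusted p = 0.00173) and 1.91 for Il1rl2 (adjusted p = 0.000385). Among the lists, 19 of 28 effector and tissue genes and 9 of 17 suppressor molecules were lower against WT hCD2. Between WT hCD2 and WT GFP cells of wild-type mice, limma called 0 genes, with 414 higher and 48 lower at an unadjusted p under 0.05. WT GFP 1 correlated with WT hCD2 3 at 0.92, and WT GFP 2 with WT hCD2 4 at 0.89. Other pairs of these 4 arrays correlated at 0.64 to 0.68. The fit did not model this pairing and had 2 arrays on each side, so the count of 0 does not show that the reporters are alike.

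Against Tconv, 237 genes were higher (1.30%) and 209 lower (1.15%) in R397W cells. Foxp3, Il2ra, Socs2, Ikzf2 and Ctla4 stayed above Tconv by 6.64, 4.41, 3.79, 3.77 and 3.40, while Klrg1, Gpr15, Ccr8, Gzmb and Icos did not pass the test, at -0.56, 0.37, 0.03, -0.17 and -0.18. The median of the suppressor molecules on each array was 0.10 to 0.46 on the R397W arrays, against 1.92 to 3.16 on the WT arrays. For effector and tissue genes it was -0.39 to 0.27 on the R397W arrays, against 1.13 to 1.98 on the WT arrays.

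The other 2 mutants were compared next. Against I363V, limma called 17 genes higher (0.0934%) and 4 lower (0.0220%), with 825 higher and 810 lower at an unadjusted p under 0.05. These counts were larger without R397W array 2, at 54 genes higher and 47 lower. They also move with the I363V arrays, with 11 higher and 9 lower without I363V array 1, 4 higher without array 2 and 11 lower without array 3, and 7 were lower without R397W array 1. Itgae was 0.70 lower in R397W than in I363V cells, without passing the test (adjusted p = 0.283). Its values were 1.66, 1.44 and 1.92 on the R397W arrays, against 2.41, 2.53 and 2.19 on the I363V arrays.

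The genes called lower in R397W than in I363V cells were Lyz1 (-3.70), Lyz2 (-2.36), Junb (-2.08) and Mettl23 (-1.91). Mettl23, a methyltransferase-like protein, was -0.12, 0.39 and -0.16 on the R397W arrays, against 1.69, 2.18 and 1.97 on the I363V arrays, so the I363V arrays were the high ones. Dido1 (1.27, adjusted p = 0.0113) and Slfn5 (1.49, adjusted p = 0.0289) were among the genes called higher. In a fit of the 2 mutant groups only, 0 genes were called higher. Against WT, the 5 probe sets of Dido1 differed in sign, from -0.034 to 1.05. The 3 probe sets of Slfn5 were all above 0 against WT, from 0.185 to 1.4. Dido1, a nuclear protein, was 1.24, 0.52 and 0.83 on the R397W arrays, against -0.10, -0.36 and -0.76 on the I363V arrays.

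Against A384T, 433 genes were lower (2.38%) and 187 higher (1.03%) in R397W cells. Itgae and Il1rl2 set these mutants apart. Itgae was 4.78, 4.59 and 5.08 on the A384T arrays, so R397W cells were 3.14 lower (adjusted p = 8.26e-07), and Il1rl2 was 2.16 higher in R397W cells (adjusted p = 4.19e-06). Sytl4, a regulator of vesicle release, was 0.22, 0.30 and 0.19 on the R397W arrays, against 2.60, 3.07 and 2.94 on the A384T arrays (-2.64, adjusted p = 1.68e-07). Myo6, a myosin that moves cargo inward, was 2.36, 2.04 and 1.68 on the R397W arrays, against -0.72, -0.94 and -0.85 on the A384T arrays (2.86, adjusted p = 2.02e-06). Klrg1 was low in both mutants, at -4.51 against WT in R397W cells and -3.91 against WT in A384T cells, comparisons that share the WT arrays. The counts against A384T moved to 89 to 258 higher and 225 to 421 lower when 1 array of these mutants was left out, being 89 and 225 without A384T array 2, 115 and 239 without array 3, and 116 higher without array 1.

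**Figure D5:**
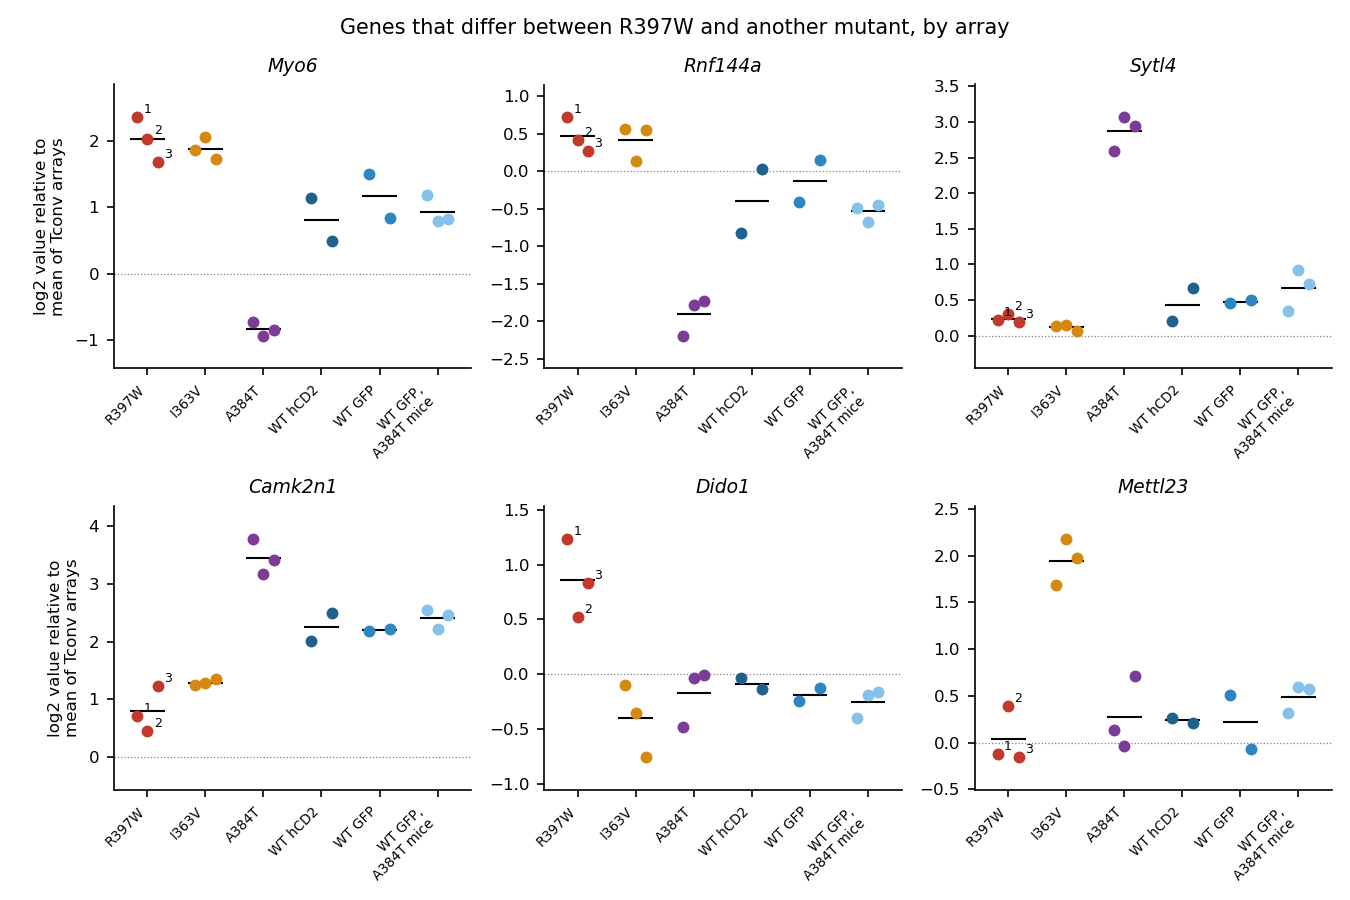
Values of Myo6, Rnf144a, Sytl4, Camk2n1, Dido1 and Mettl23 on each array (y axis, log2 relative to the Tconv mean) for R397W, I363V and A384T cells and the 3 WT groups, with black bars at group means. A384T arrays stand apart for Myo6, Rnf144a, Sytl4 and Camk2n1, R397W arrays for Dido1 and I363V arrays for Mettl23.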

How the data were processed

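RNA of 18 samples was measured on GeneChip arrays. The deposited values are log2 intensities. RMA is named in the submitters' processing notes, while the software and its version are not given in the sources used here. The log base follows the convention of RMA. Each probe set is shifted so that the 2 Tconv arrays average 0, which leaves differences between groups unchanged and removes levels. Neither a filter on low values nor a prior tied to the level was therefore possible. No array was left out and nothing was normalized again.

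After 13 control probe sets were set aside, the platform annotation named 1 gene for 34945 of 45101 probe sets, several for 932 and no gene for 9211. The probe set that varied most across all 18 arrays stood for its gene, which gave 18193 genes, 9010 of them with several probe sets. That choice used the R397W arrays, so it can favour probe sets with large differences. With the mean of all probe sets 1379 genes were called, of which 1058 were called in the same direction in the main fit.

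A fit with limma 3.58.1 in R 4.3.3 took 5 groups (R397W, the 7 WT arrays, I363V, A384T and Tconv), with 13 residual and 3.48 prior degrees of freedom. Contrasts with single WT groups came from a fit of 7 groups with 11 residual degrees of freedom. Tests were two-sided, with Benjamini-Hochberg adjustment over all genes. When R397W against WT was tested on simulated data, the share of changed genes recovered was 42.4% for a log2 change of 0.5, 87.2% for 1, 99.6% for 2 and 100% for 3. False calls were 5.17%. That simulation changed a far smaller share of genes than was called in these data and gave all arrays equal variance, so its rates need not hold here. It also drew every array independently, which WT arrays that deviate together do not obey. The fit likewise treats as independent the A384T arrays and the WT GFP arrays of A384T mice, which correlate by number. Tables and plots used Python 3.11.15, pandas 2.3.3 and matplotlib 3.10.9.

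The comparison, the gene lists and the markers were chosen with earlier results of these data known, so a list's direction is not independent evidence. Named genes are the markers and Foxp3, the 12 largest increases and decreases without overlap of arrays, up to 6 called members of each list by size, the members not called of 6 of the lists, and the 6 largest differences in each direction against I363V and A384T. Ikzf2, Gata3, Ctla4, Tnfrsf9, Tnfrsf4, Tnfrsf1b, Pdcd1, Cd44, Lgals1, Lgals3, Nt5e, Ccr2, Ccr4, Ccr6, Cxcr6, Il12rb1, Gucy1b1, Hspa1a, Mki67, Tnf, Cd14, Itgam and Adgre1 were named after their values were seen. Promoter windows come from RefSeq on GRCm38.p6. Alternatives changed the WT arrays used, the arrays in the fit, the replicate block, the probe set rule, a variance filter, the centring, the variance prior and each array in turn. Averaging WT arrays that deviate together, leaving out WT GFP 2 with WT hCD2 4, and array weights were chosen after seeing the data.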

Additional observations from a re-analysis of the deposited data

Results flagged for a closer look

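Among the 7 WT arrays, 5 named genes had an array far from the others: the gap to the next array, as a share of the whole range, exceeded Dixon's critical value. Chance alone gives such a gap in about 1 in 20 groups, and 185 genes were examined. Cd200 was lowest on array 3 of the WT GFP cells of A384T mice, at 0.88, with the next at 1.21. Il7r was highest on array 1 of the same group, at -0.64, with the next at -1.37. Il13 was highest on WT hCD2 4, at 0.15, with the next at -0.09. Themis was lowest on array 2 of the WT GFP cells of A384T mice, at -2.02, with the next at -1.63. Madd was highest on WT GFP 2, at -0.02, with the next at -0.34.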

How the results depend on the processing

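No difference of a named gene that was called changed sign under an alternative. With WT hCD2 arrays only as the WT cells in the fit, 70 genes were higher and 215 lower in R397W cells, and with WT GFP arrays of wild-type mice only, 53 and 177. With WT GFP arrays of A384T mice only, 290 were higher. These settings use fewer WT arrays. With array weights 391 genes were higher and 685 lower, and with WT arrays that deviate together averaged, 385 and 821. Without WT GFP 2 and WT hCD2 4 the counts were 606 higher and 1311 lower. In every fit of R397W against WT that was run, 40 genes were called higher and 150 lower. In fits of the 2 mutant groups only, 0 genes were higher against I363V, and 66 were higher and 232 lower against A384T. With the replicate number as a block these were 0 higher and 1 lower against I363V and 6 and 42 against A384T, while R397W against WT gave 350 and 817. Deviations of same-numbered arrays did not correlate throughout (R397W with A384T -0.21, -0.17 and -0.09, with I363V 0.04, 0.34 and 0.01), so the numbers were not taken to pair R397W arrays with others. A384T arrays and WT GFP arrays of A384T mice correlated more with the same number (0.890, 0.886 and 0.888) than with another (0.742 to 0.833). The limma fit of all 18 arrays treats them as independent. Without the A384T arrays, in a fit of the R397W and WT arrays only, 366 genes were higher and 779 lower in R397W cells. WT GFP 1 also deviated with Tconv 1 (0.71). Leaving out 1 array gave 4 to 54 higher and 5 to 47 lower genes against I363V, where 4 were lower in the full set, and 89 to 258 higher and 225 to 421 lower against A384T. With every probe set tested on its own, 678 genes had a probe set called higher and 1081 one called lower.

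List medians moved as follows. With WT GFP arrays of A384T mice only they were -0.539 for transcription factors, -0.530 for early response genes and -0.001 for genes known to be lower in Treg. With WT hCD2 only they were 0.046 for genes known to be lower in Treg, -0.030 for naive genes and -0.040 for cyclic nucleotide genes. With WT GFP of wild-type mice only they were 0.030 for T helper cytokines, 0.030 for genes known to be lower in Treg and -0.201 for early response genes. The mean of all probe sets gave 0.137 for genes known to be lower in Treg and 0.172 for naive genes. Leaving out 1 array gave -0.506 to -0.359 for transcription factors, -1.216 to -0.823 for surface receptors, -0.129 to 0.036 for T helper cytokines, -0.077 to 0.265 for genes known to be lower in Treg, -0.270 to 0.055 for naive genes, -0.437 to -0.304 for early response genes, -0.635 to -0.171 for heat shock genes and -0.757 to -0.272 for glycolysis genes. The causes were not tested. The number of arrays limits the precision, and dim probe sets could not be told from bright ones.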
